A study of Mus musculus with 24 samples.

Results

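The genes described here are 28 genes of inhibitory signalling, taken by name from the 46983 genes of a hippocampal read count table of 24 female C57BL/6 mice. They are 9 subunits of the GABA-A receptor (Gabra2, Gabra3, Gabra4, Gabra5, Gabrb1, Gabrb2, Gabrg1, Gabrg3 and Gabrd), both subunits of the GABA-B receptor (Gabbr1 and Gabbr2), 5 genes of GABA synthesis, vesicle loading, uptake and breakdown (Gad1, Gad2, Slc32a1, Slc6a11 and Abat), the postsynaptic scaffold Gphn, the chloride cotransporters Slc12a5 and Slc12a2, and 9 genes that mark interneurons (Pvalb, Lhx6, Dlx1, Dlx2, Dlx6, Erbb4, Nxph1, Reln and Adarb2). Each name matched 1 row of the table, and all 28 genes had at least 10 reads in every mouse. The lowest counts were those of Dlx6, from 54 to 120 reads per mouse, and of Dlx2, from 62 to 120.

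The study asked how the loss of the stress-related cochaperone FKBP51 from glutamatergic forebrain neurons alters the lasting response to early life stress (ELS). Bulk mRNA was sequenced from dorsal and ventral hippocampal punches of 1 mm diameter in 4 groups of 6 mice. Fkbp5lox/lox control and Fkbp5lox/lox ELS mice carried Fkbp5 alleles flanked by loxP sites and no Cre recombinase. Fkbp5Nex control and Fkbp5Nex ELS mice carried the same alleles together with Nex-Cre, which removes Fkbp5 from glutamatergic neurons of the forebrain but, by the study's methods, not from the dentate gyrus. ELS mice were kept with limited bedding and nesting material from postnatal day 2 to 9, and control mice were not. By the study, the sequenced mice came from its first cohort, so they were not undisturbed adults. That cohort entered anxiety and memory tests, among them a water maze, at 6 months of age and was then scanned by MRI. The age at which the sequenced tissue was taken is not given in the sources used here.

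GABA, the main inhibitory transmitter of the brain, is made from glutamate by the 2 glutamate decarboxylases that Gad1 and Gad2 encode and is loaded into synaptic vesicles by the transporter that Slc32a1 encodes. It opens GABA-A receptors, chloride channels built of 5 subunits whose mixture sets where the receptor sits and how it responds, and it activates GABA-B receptors, which are coupled to G proteins. Whether an open GABA-A receptor inhibits a neuron depends on its chloride gradient, which the cotransporters encoded by Slc12a5 (KCC2, outward) and Slc12a2 (NKCC1, inward) set up. In the hippocampus, GABA is released mainly by interneurons, a minority of the neurons and of diverse kinds.

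The sequences below lie just upstream of the RefSeq transcription start sites of 5 of the genes whose levels, across the mice, were most closely related to that of another gene on the list. They are given 5′ to 3′ on the gene's strand, from RefSeq windows on GRCm38.p6, and cover only bases outside every exon of the GENCODE vM21 annotation. Where a gene had several windows, that of the lowest coordinate was used. The stretches of Gad1 and Pvalb lie in introns of the GENCODE genes, whose 5′ ends are at 70553072 and 78206400. Capitals mark CG dinucleotides. Gad1 (chr2:70561879-70562041, plus strand) and Gad2 (chr2:22622077-22622204, plus strand) encode the 2 decarboxylases, Erbb4 (chr1:69108060-69108309, minus strand) a neuregulin receptor of interneurons, Pvalb (chr15:78204238-78204487, minus strand) the calcium buffer parvalbumin, and Dlx2 (chr2:71546755-71547004, minus strand) a homeobox factor of interneuron development.
Gad1: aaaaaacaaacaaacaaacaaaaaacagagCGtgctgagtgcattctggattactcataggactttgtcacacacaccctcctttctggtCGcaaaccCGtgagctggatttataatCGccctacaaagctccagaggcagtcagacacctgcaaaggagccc
Gad2: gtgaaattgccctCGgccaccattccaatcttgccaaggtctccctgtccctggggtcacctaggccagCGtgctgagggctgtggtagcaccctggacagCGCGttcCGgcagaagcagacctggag
Erbb4: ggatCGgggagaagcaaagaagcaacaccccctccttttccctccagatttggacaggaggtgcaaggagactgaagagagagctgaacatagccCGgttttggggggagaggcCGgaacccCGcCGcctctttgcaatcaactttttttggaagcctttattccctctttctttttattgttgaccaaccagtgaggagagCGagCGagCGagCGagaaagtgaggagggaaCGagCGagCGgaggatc
Pvalb: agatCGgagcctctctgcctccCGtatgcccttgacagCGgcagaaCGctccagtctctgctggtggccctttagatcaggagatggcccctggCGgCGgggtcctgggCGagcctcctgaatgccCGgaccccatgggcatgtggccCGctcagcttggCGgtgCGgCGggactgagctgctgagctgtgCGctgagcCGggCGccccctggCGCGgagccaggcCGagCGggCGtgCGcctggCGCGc
Dlx2: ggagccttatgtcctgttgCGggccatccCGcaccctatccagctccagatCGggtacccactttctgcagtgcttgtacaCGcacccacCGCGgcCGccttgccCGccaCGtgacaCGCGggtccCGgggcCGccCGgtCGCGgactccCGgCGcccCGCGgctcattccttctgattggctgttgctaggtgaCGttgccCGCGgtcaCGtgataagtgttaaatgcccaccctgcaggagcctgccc

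The full windows of 250 upstream bases held 17 CG dinucleotides at Gad1, 13 at Gad2, 12 at Erbb4, 23 at Pvalb and 24 at Dlx2, against a median of 6 over the 32851 windows of all genes. Only 4 of those at Gad1 and 5 of those at Gad2 lie in the bases printed above. For Erbb4, Pvalb and Dlx2 the whole window is printed. The letters TAATT, a core that many homeodomain factors bind, were searched on both strands and were in none of these 5 windows. Of the 24 listed genes with a window, 4 held these letters in any of their windows (Gabrb2, Gabrg1, Lhx6 and Adarb2). These 24 genes had 32 windows. Counted by window rather than by gene, 25.0% of the windows of all genes held the letters. Such letters describe the sequence and do not show that a factor binds there.

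Between 18347283 and 26555623 reads per mouse fell on genes, with a median of 21385946.5. Reads of Fkbp5 ranged from 169 to 582 in the 12 Fkbp5Nex mice and from 1078 to 1602 in the 12 Fkbp5lox/lox mice, which matches every genotype label. Markers of hippocampal neurons were present in every mouse, with a sum of 105.1 to 1035 CPM (reads scaled to library size) over 7 markers of CA1 pyramidal neurons and of 306.7 to 1385 CPM over 9 markers of dentate gyrus granule cells. The punches also differed in markers of other tissue, since 4 choroid plexus markers summed to between 14.3 and 4520 CPM and 11 thalamic markers to between 154.3 and 538.8 CPM. The thalamic list includes Tcf7l2 and Slc17a6, from a gene module that the study associates with ELS and with its interaction with genotype. Adjusting for a score of that list, as below, can therefore also remove differences between groups. Whether thalamic tissue or regulation set these levels was not tested. In such bulk tissue, fewer cells of a type and less RNA per cell cannot be told apart.

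Among receptor subunits, levels are given in CPM per kb of exon (mean ± SD over the 24 mice), to set genes of unlike length side by side. The length counts every annotated exon of a gene, so comparisons between genes also depend on the annotation. The SD over mice does not measure this. Gabbr1, the GABA-B subunit that binds GABA, had the highest level of the 28 genes, at 88.7 ± 4.25, and its partner Gabbr2 was at 51.7 ± 6.24. Of the alpha subunits, Gabra5 was at 65.7 ± 8.72 and Gabra2 at 51.7 ± 3.84, while Gabra4 and Gabra3 were at 19.4 ± 3.16 and 18.7 ± 5.22. Those latter 2 subunits lay within 1 SD of each other. The beta subunits Gabrb1 and Gabrb2 were near them, at 18.5 ± 1.66 and 16.7 ± 3.48. The lowest receptor subunits were Gabrd, which forms extrasynaptic receptors, at 6.19 ± 3.06, and the gamma subunits Gabrg1 and Gabrg3, at 4.17 ± 0.549 and 2.05 ± 0.300.

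Of the genes that make and clear GABA, Gad1 was at 53.1 ± 4.23 and Gad2 at 40.7 ± 4.77 CPM per kb, and the vesicular transporter gene Slc32a1 was at 19.01 ± 3.45. Abat, the transaminase that breaks GABA down, and Slc6a11, the uptake transporter GAT3 that astrocytes carry, were within 1 SD of each other at 38.2 ± 3.71 and 36.6 ± 5.01. Gphn, which encodes the scaffold gephyrin, was at 22.5 ± 1.36. Slc12a5 was at 51.3 ± 5.11 and Slc12a2 at 7.38 ± 2.04. The log2 ratio of their CPM was 2.12 ± 0.51 in Fkbp5lox/lox control, 2.30 ± 0.42 in Fkbp5lox/lox ELS, 2.27 ± 0.42 in Fkbp5Nex control and 2.45 ± 0.34 in Fkbp5Nex ELS mice (SD over 6 mice), so these means differed by less than 1 SD.

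Among the interneuron genes named at the start, Pvalb stood highest per length at 25.8 ± 5.03 CPM per kb. Cck, Sst and Npy, which belong to the separate list of other interneuron genes below, stood higher. A middle band held Nxph1, a secreted neurexin ligand, at 6.93 ± 0.759, Erbb4 at 6.79 ± 1.09 and Dlx1 at 6.66 ± 0.942, all within 1 SD of each other. Lhx6, a factor of interneurons from the medial ganglionic eminence, was at 4.28 ± 0.695. Reln, which encodes the secreted protein reelin, was at 3.27 ± 0.702, and Adarb2, an RNA-editing family gene that marks interneurons of caudal origin, was at 3.001 ± 0.715. Dlx6 and Dlx2 were lowest, at 1.68 ± 0.368 and 1.44 ± 0.282.

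**Figure D1:**
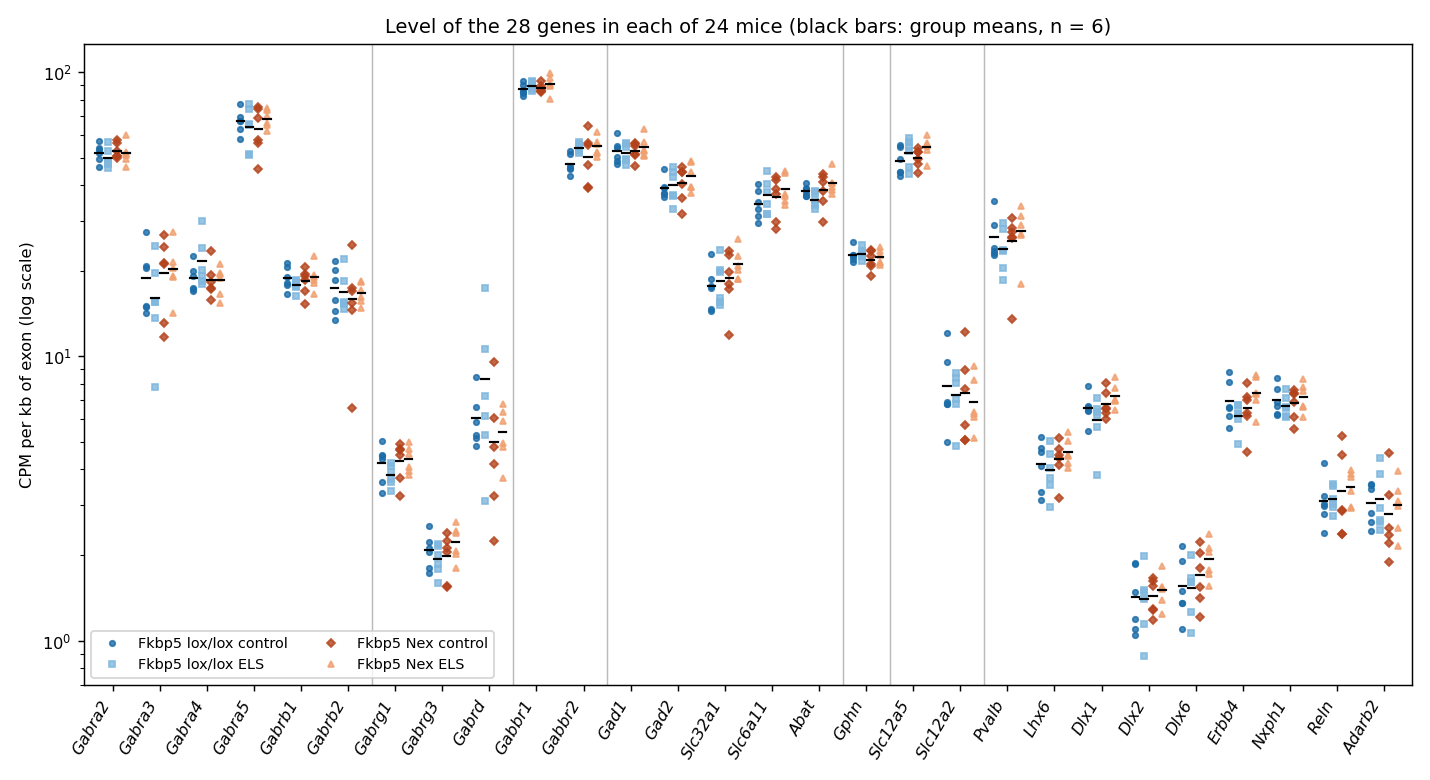
Levels of the 28 genes in CPM per kb of exon (log axis), 1 point per mouse, with colours and shapes for the 4 groups, black bars for group means and grey lines between roles. No gene separates the 6 mice of 1 group from those of another in the 4 comparisons of single groups, and Gabrd spans the widest range, from 2.24 to 17.3 CPM per kb.

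The genes differed widely in how much they varied between mice of a group. The median SD within groups was 0.21 on the log2 CPM scale, against 0.18 over the 16209 genes tested. Gabrd had the largest SD, 0.60, at percentile 96.5 of all tested genes, and its highest mouse stood 7.74-fold above its lowest. Gabra3, an X-linked alpha subunit gene, and Slc12a2 followed with SDs of 0.44 and 0.40. At the other end, Gabbr1 had an SD of 0.07 (percentile 2.04) and Gphn of 0.09 (percentile 8.40), with 1.23-fold and 1.32-fold between their extreme mice. The decarboxylase genes Gad1 and Gad2 had SDs of 0.12 and 0.17.

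Positions are from GENCODE vM21 on GRCm38. 4 subunit genes lie in 1 cluster on chromosome 5, in the order Gabrg1 (70751047 to 70842617, minus strand), Gabra2 (70957597 to 71095849, minus), Gabra4 (71569749 to 71658308, minus) and Gabrb1 (71658113 to 72149037, plus). Gabrg3 (56716465 to 57387188, minus) and Gabra5 (57407672 to 57510059, minus) lie side by side on chromosome 7, and Dlx1 (71528113 to 71533981, plus) and Dlx2 (71543408 to 71546754, minus) on chromosome 2. The exons of 9 of the 28 genes overlap another annotated gene. Gabra4 and Gabrb1 overlap at their 5′ ends on opposite strands and share 46 exon bases, and 335 exon bases of Dlx1 are shared with its antisense gene Dlx1as, whose reads came to 16.2% of those of Dlx1. Whether the counting used strand is not given in the sources used here, so reads from such stretches cannot be assigned to 1 of the genes.

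The first comparison asked whether the loss of Fkbp5 from glutamatergic neurons was accompanied by a change in these genes, which are expressed by interneurons, glutamatergic neurons and, for some, glia. None of the 28 genes differed between Fkbp5Nex and Fkbp5lox/lox mice over both rearing conditions at an FDR of 0.02 in edgeR (quasi-likelihood F test, Benjamini-Hochberg adjustment), while 0.117% of the 16209 genes tested did. The fit held a mean for each group and 5 surrogate variables that capture other differences between mice, and every log2 fold difference below is an estimate from that fit unless said otherwise. At an unadjusted p under 0.05 there were 3 of 28 genes (10.7%), against 11.5% of all genes, and none passed the threshold in DESeq2's Wald test, which also put 3 below an unadjusted 0.05.

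Gabrb2, which encodes a beta subunit of synaptic receptors, had the smallest p. It ranged from 85.2 to 138 CPM with a median of 109 in Fkbp5lox/lox control mice and from 93.5 to 139.8 with a median of 98.4 in Fkbp5lox/lox ELS mice. It ranged from 41.9 to 157 CPM with a median of 103 in Fkbp5Nex control mice and from 94.2 to 117 with a median of 106 in Fkbp5Nex ELS mice. All 4 groups overlapped, and both the lowest and the highest of the 24 mice were Fkbp5Nex controls. The estimate was 0.12 higher in Fkbp5Nex mice (95% interval 0.03 to 0.20, unadjusted p = 0.00737, adjusted p = 0.248 in edgeR's quasi-likelihood test), but its sign depended on the adjustment. Without surrogate variables it was -0.068, with thalamic and choroid plexus scores in their place -0.10, and with a dentate gyrus score 0.09. Single mice also weighed on it, since it was 0.042 without mouse 30 of the Fkbp5lox/lox controls and 0.21 without mouse 52 of the Fkbp5Nex controls, which also took the estimate within ELS mice from 0.12 to 0.21. The mean was 109 ± 18.7 CPM in Fkbp5lox/lox and 104 ± 25.8 CPM in Fkbp5Nex mice (SD over 12 mice).

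Abat, the GABA transaminase, lay between 283 and 315 CPM (median 296) in Fkbp5lox/lox control mice and between 256 and 295 (median 272) in Fkbp5lox/lox ELS mice. It lay between 230.1 and 340.1 CPM (median 306) in Fkbp5Nex control and between 288 and 367 (median 309.8) in Fkbp5Nex ELS mice. After ELS, 5 of 6 Fkbp5Nex mice were above all 6 Fkbp5lox/lox mice, whereas the control groups overlapped throughout. The estimate for genotype was 0.09 (interval 0.02 to 0.17, adjusted p = 0.312, edgeR), 0.13 within ELS mice (interval 0.02 to 0.24, adjusted p = 0.701) and 0.06 within controls (interval -0.05 to 0.16, adjusted p = 0.790). Without mouse 30 of the Fkbp5lox/lox controls the estimate was 0.058 for genotype and 0.010 within controls.

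Slc12a2, the inward chloride cotransporter, ranged from 54.4 to 132 CPM with a median of 74.9 in Fkbp5lox/lox control mice and from 55.4 to 133 with a median of 73.0 in Fkbp5Nex control mice. It ranged from 53.0 to 95.6 CPM (median 82.7) in Fkbp5lox/lox ELS and from 56.4 to 101 (median 69.0) in Fkbp5Nex ELS mice. The groups overlapped almost fully. The estimate was -0.11 for Fkbp5Nex against Fkbp5lox/lox mice (interval -0.19 to -0.03, adjusted p = 0.288, edgeR) and -0.16 within controls (interval -0.28 to -0.05, adjusted p = 0.384). Without mouse 30 of the Fkbp5lox/lox controls these were -0.040 and -0.057. Slc12a2 is also abundant in choroid plexus and in cells of the oligodendrocyte lineage. Of 8 listed choroid plexus markers, 4 had enough reads to be tested. All 4 were estimated lower in Fkbp5Nex mice (median log2 fold difference -1.43, with Ttr past the threshold). Their summed level had a median of 879.4 CPM in Fkbp5lox/lox control and 51.3 CPM in Fkbp5Nex control mice, in ranges that overlapped (17.0 to 4520 and 14.3 to 3363). The 6 oligodendrocyte markers went the other way, with all estimates above 0 and none past the threshold (median 0.13 for genotype and 0.07 within controls), and summed to between 1439 and 5215 CPM in Fkbp5lox/lox control and between 1536 and 6464 CPM in Fkbp5Nex control mice. The part of oligodendrocytes in the estimate of Slc12a2 was not tested. With scores of the thalamic and choroid plexus lists in place of the surrogate variables, the estimate for Slc12a2 was 0.04 for genotype and 0.05 within controls.

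For the remaining genes the genotype estimates ran from -0.13 for Gabrd to 0.12 for Reln. The interval lay within 0.32 of 0 (log2) for 27 of 28 genes, all but Gabrd. Estimates were above 0 for 20 of 28 genes (71.4%), against 49.2% of all genes tested, with a median estimate of 0.05. That count was 15 when a dentate gyrus score replaced the surrogate variables, 23 with the thalamic and choroid plexus scores, and 11 without mouse 12 of the Fkbp5Nex controls. Receptor subunit genes lay between -0.13 (Gabrd) and 0.12 (Gabrb2), GABA metabolism genes between 0.02 (Gad1) and 0.10 (Slc6a11), and interneuron genes between -0.06 (Dlx2) and 0.12 (Reln). Gphn was at -0.06 and Slc12a5 at 0.06.

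Within control-reared mice, 2 of 28 genes had an unadjusted p under 0.05, both with lower estimates in Fkbp5Nex mice, against 8.69% of all genes, and none passed an adjusted p of 0.02, which 0.0494% of all genes did. They were Slc12a2 and Gabrd, the delta subunit of extrasynaptic receptors that dentate granule cells carry in abundance. Gabrd ranged from 13.9 to 24.3 CPM (median 16.1) in Fkbp5lox/lox control and from 6.44 to 27.4 (median 12.9) in Fkbp5Nex control mice. It ranged from 8.92 to 49.8 CPM (median 19.3) in Fkbp5lox/lox ELS and from 10.7 to 19.6 (median 15.6) in Fkbp5Nex ELS mice. The highest mouse of all, at 49.8 CPM, was 1 Fkbp5lox/lox ELS animal (mouse 8), and the groups overlapped. The estimate for Gabrd within controls was -0.36 (interval -0.69 to -0.02, adjusted p = 0.546, edgeR).

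The dentate gyrus markers had estimates of the same sign as Gabrd. All 9 were estimated lower in Fkbp5Nex control than in Fkbp5lox/lox control mice, with a median of -0.67 and 3 past the threshold (Prox1, Npnt and Dsp), and their summed level ranged from 481.4 to 783.1 CPM in Fkbp5lox/lox control and from 306.7 to 1005 CPM in Fkbp5Nex control mice. With the score of that list in place of the surrogate variables, an alternative chosen after the data were seen, the estimate for Gabrd was 0.25 (unadjusted p = 0.135), so its sign turned. With the thalamic and choroid plexus scores in place of the surrogate variables, Gabrd instead had the smallest adjusted p of the 28 genes. In edgeR's quasi-likelihood test it was 0.0735 for genotype and 0.286 within controls, against 0.683 and 0.546 with the surrogate variables. Both stayed above 0.02. With the surrogate variables, the estimate for Gabrd within controls was -0.55 without mouse 8 of the Fkbp5lox/lox ELS group. Without mouse 28 of the Fkbp5lox/lox controls it was -0.18.

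After ELS, 2 of 28 genes had an unadjusted p under 0.05 for genotype, Abat and Gabrb2, both with higher estimates in Fkbp5Nex mice, against 6.59% of all genes. None passed an adjusted p of 0.02, as 0.0123% of all genes did. Estimates were above 0 for 23 of 28 genes, the highest being those of Dlx6 at 0.16 (interval -0.13 to 0.45) and Gabrg1 at 0.16 (interval -0.04 to 0.37), while 48.9% of all genes were above 0. Both rested in part on 1 mouse, as Dlx6 was at -0.0044 without mouse 72 of the Fkbp5lox/lox ELS group and Gabrg1 at 0.10 without mouse 66 of the Fkbp5Nex ELS group. No gene of the 28 separated the 6 mice of 1 genotype from the 6 of the other in either rearing condition, which 0.16% of all genes did among controls and 0.173% did after ELS.

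**Figure D2:**
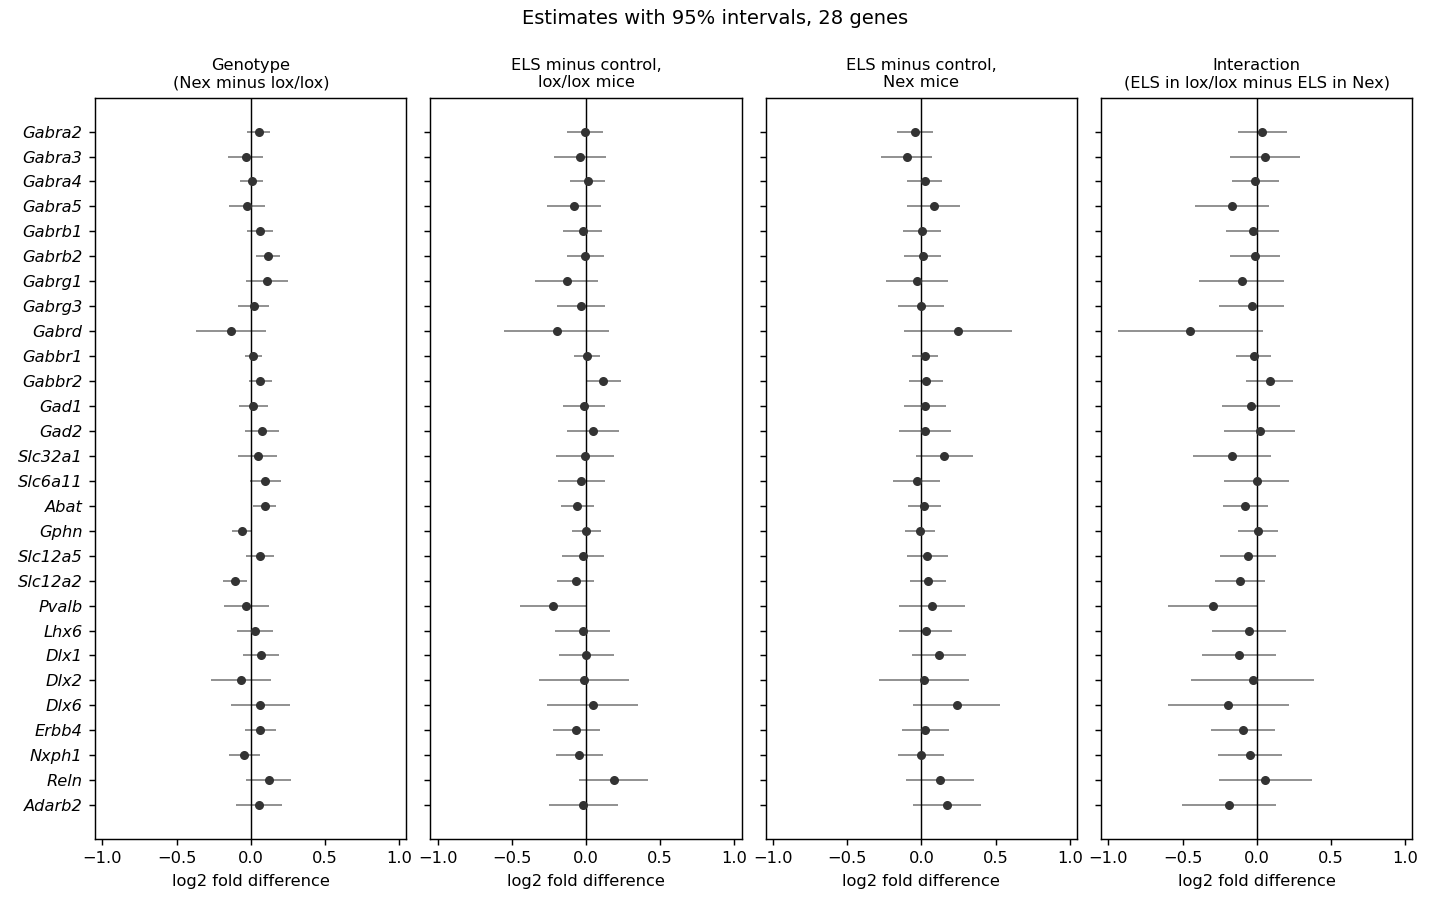
Log2 fold differences with 95% intervals for the 28 genes in 4 of the 7 comparisons, from the fit with surrogate variables. Every adjusted p was above 0.02, and the widest intervals belong to Gabrd, from -0.94 to 0.04 for the interaction.

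The second comparison asked whether ELS left a lasting change. Over both genotypes, none of the 28 genes passed the threshold and none had an unadjusted p under 0.05, where 0% and 3.56% of all genes did, and DESeq2's Wald test gave the same counts of 0 for the 28. Reln had the smallest p. It ranged from 56.6 to 100.2 CPM (median 71.1) in Fkbp5lox/lox control, from 64.9 to 84.6 (median 73.5) in Fkbp5lox/lox ELS, from 56.1 to 124 (median 67.9) in Fkbp5Nex control and from 69.7 to 94.7 (median 84.5) in Fkbp5Nex ELS mice. The 2 ranges of ELS mice lay inside those of the controls of the same genotype, and all groups overlapped. The estimate was 0.16 higher after ELS (interval -0.01 to 0.33, unadjusted p = 0.0676, edgeR), and 0.03 without the surrogate variables. The interval lay within 0.32 of 0 (log2) for 26 of 28 genes, the exceptions being Reln and Dlx6. Estimates were above 0 for 16 of 28 genes (57.1%), against 52.2% of all genes.

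Within Fkbp5lox/lox mice, none of the 28 genes had an unadjusted p under 0.05 for ELS, against 4.86% of all genes, and neither any of the 28 nor any gene at all passed an adjusted p of 0.02 (0% of 16209). Estimates were above 0 for 8 of 28 genes (28.6%), against 51.4% of all genes. DESeq2's Wald test put 1 of the 28 below an unadjusted 0.05 and none past the threshold. Pvalb, which marks fast-spiking interneurons, had the smallest p, with a range of 23.7 to 36.6 CPM (median 24.7) in Fkbp5lox/lox control and of 19.3 to 30.6 (median 24.5) in Fkbp5lox/lox ELS mice. Its medians were close and its ranges overlapped, and the estimate was -0.22 (interval -0.45 to 0.00, unadjusted p = 0.051). Gabbr2, chosen here after its values were seen, ranged in CPM from 289 to 353 (median 309) in control and from 347 to 379 (median 359) in ELS mice, and 2 ELS mice lay below the highest control. The estimate for Gabbr2 was 0.12 (interval 0.00 to 0.23, unadjusted p = 0.0515, adjusted p = 0.954 in edgeR), and 0.17 (unadjusted p = 0.0069, adjusted p = 0.683) when these 12 mice were fitted alone.

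Within Fkbp5Nex mice the same comparison gave 0 of 28 genes at an unadjusted p under 0.05, against 2.8% of all genes, and none past the threshold, also for all genes (0%) and with DESeq2 for the 28. Estimates were above 0 for 21 of 28 genes (75%), against 52.3% of all genes. The smallest p was that of Slc32a1, the vesicular GABA transporter. It ranged from 33.1 to 65.9 CPM (median 53.0) in Fkbp5Nex control and from 52.2 to 72.6 (median 57.3) in Fkbp5Nex ELS mice, where the lowest mouse was close to the median of the controls. The estimate was 0.16 (interval -0.03 to 0.35, unadjusted p = 0.104), and in Fkbp5lox/lox mice it was -0.01 (interval -0.20 to 0.18). The former was 0.084 without mouse 54 of the Fkbp5Nex controls and 0.25 without mouse 74 of the Fkbp5lox/lox controls, and the latter ranged from -0.10 without mouse 56 to 0.07 without mouse 4, both of the Fkbp5lox/lox ELS group. The widest interval again was that of Gabrd, at 0.25 (-0.12 to 0.61), which was 0.046 without mouse 64 of the Fkbp5Nex controls. No gene of the 28 separated control from ELS mice in either genotype, which 0.0925% of all genes did in Fkbp5lox/lox and 0.0679% in Fkbp5Nex mice.

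The interaction, the ELS effect in Fkbp5lox/lox minus that in Fkbp5Nex mice, tested whether the response to ELS depended on genotype. None of the 28 genes passed an adjusted p of 0.02 or an unadjusted p of 0.05, where 0% and 4.02% of all genes did. Estimates were below 0 for 22 of 28 genes and above 0 for 6 (21.4%), against 50% of all genes above 0. The count below 0 was 23 without surrogate variables and 26 with the thalamic and choroid plexus scores. The 28 genes vary together in part, so such counts are not independent. DESeq2's Wald test put 1 of the 28 below an unadjusted 0.05 and none past the threshold. Pvalb had the smallest p, with an estimate of -0.29 (interval -0.60 to 0.01, unadjusted p = 0.0576, edgeR), as ELS estimates were -0.22 in Fkbp5lox/lox and 0.07 in Fkbp5Nex mice. In Fkbp5Nex mice Pvalb ranged from 14.1 to 32.0 CPM (median 27.9) in controls and from 18.8 to 35.2 (median 29.1) after ELS, and all 4 groups overlapped. Gabrd had the largest estimate, -0.45 (interval -0.94 to 0.04), which was -0.25 without mouse 64 of the Fkbp5Nex controls, 0.35 without the surrogate variables and 0.00 with the dentate gyrus score in their place. The 9 dentate gyrus markers had interaction estimates below 0 too, with a median of -0.36 and none past the threshold, and their part in the value of Gabrd was not tested further. The interval lay within 0.32 of 0 (log2) for 18 of 28 genes and reached farther for the other 10, Gabrd, Pvalb, Gabra5, Gabrg1, Slc32a1, Dlx1, Dlx2, Dlx6, Reln and Adarb2.

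Other genes of the pathway were counted from a list of 33 that excludes the 28, of which 28 had enough reads to be tested. It holds further GABA-A receptor subunits, receptor-associated proteins, the neuronal uptake transporter, the kinases that act on the chloride cotransporters and GABA-B effectors. None passed an adjusted p of 0.02 in any of the 7 comparisons, while 0.117% of all genes did for genotype. For genotype, 18 estimates were above and 10 below 0 (median 0.02), against 49.2% of all genes above 0. In edgeR, 3 of these genes had an unadjusted p under 0.05 for genotype, against 11.5% of all genes. The highest levels per length were those of Gabarapl1 and Gabarap, which encode trafficking and autophagy proteins of the same family, at 218 and 62.0 CPM per kb. Their genotype estimates were -0.01 and 0.00.

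Of a list of 38 other interneuron genes, all were tested and 17 estimates for genotype were above and 21 below 0 (median -0.02). Of all genes, 49.2% were above 0 and 0.117% passed the threshold. In edgeR, 8 of the 38 had an unadjusted p under 0.05 for genotype, against 11.5% of all genes. Only Prox1 passed the threshold, with an estimate of -0.49 for genotype (adjusted p = 0.000328, edgeR) and of -0.67 within controls (adjusted p = 0.000638), and Prox1 is also a marker of dentate granule cells and belongs to the dentate list above. The 3 with the highest level per length were the neuropeptide genes Cck, Sst and Npy, at 201 CPM per kb for Cck, 147 for Sst and 55.3 for Npy. Their genotype estimates were -0.12, -0.15 and -0.15, with adjusted p of 0.272, 0.256 and 0.358 in edgeR, all below 0 like those of the dentate markers, whose part in this was not tested. For ELS over both genotypes, 23 of the 38 estimates were above 0 with a median of 0.01, and none passed the threshold. Of all genes, 52.2% were above 0 and 0% passed.

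How the genes varied between mice was then set against the tissue and cell type content of the punches. For each mouse, a score was taken as the mean z-score of log2 CPM over the markers of a cell type or region, and each gene was correlated with 13 such scores over the 24 mice after removal of group means, with 100000 permutations within groups and Benjamini-Hochberg adjustment over all 364 relations. Of these, 27 passed an adjusted p of 0.05, 18 of them positive and 9 negative. When the 2 mice of most extreme score were left out for each score, 9 relations passed, 8 positive and 1 negative. The scores and the genes come from the same libraries and the same scaling, no batch is given by the labels, and a relation does not show which cells express a gene. Some scores also shared extreme mice. Fkbp5Nex control mouse 12 was highest for astrocytes (2.70), microglia (2.14) and endothelial cells (2.01). The oligodendrocyte and choroid plexus scores were 1.67 and 1.47 in Fkbp5Nex control mouse 42 and -1.70 and -1.35 in mouse 12. They were opposed in Fkbp5lox/lox control mouse 28, at -0.90 and 0.82. Relations between scores were not tested, so relations of 1 gene with several scores cannot be counted as separate findings.

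Slc12a2 had the closest relation, with the oligodendrocyte score (r = 0.91, permutation p = 1e-05, adjusted p = 0.000728, rho = 0.88, permutation p = 1e-05). Its relation with the choroid plexus score was nearly as close (r = 0.86, permutation p = 1e-05, adjusted p = 0.000728, rho = 0.84, permutation p = 1e-05), and 1e-05 is the smallest p that these permutations can give. With the 2 mice of most extreme score left out, r was 0.88 for oligodendrocytes and 0.81 for choroid plexus. Gabrd followed the dentate gyrus score (r = 0.90, permutation p = 1e-05, adjusted p = 0.000728, rho = 0.82, permutation p = 3e-05), with r = 0.80 without mice 8 and 12, the farthest on that score. Gabra4, which joins delta in extrasynaptic receptors of granule cells, went with the same score (r = 0.71, permutation p = 0.00114, adjusted p = 0.0296, rho = 0.60, permutation p = 0.00459), and there r was 0.41 without these mice. Adarb2 went with it too (r = 0.75, adjusted p = 0.0155), while Slc32a1 (r = -0.66), Gphn (r = -0.62) and Slc12a2 (r = -0.62) went against it with adjusted p of 0.0402, 0.0358 and 0.0309. Without mice 8 and 12, r was 0.52 for Adarb2, -0.41 for Slc32a1, -0.39 for Gphn and -0.73 for Slc12a2.

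**Figure D3:**
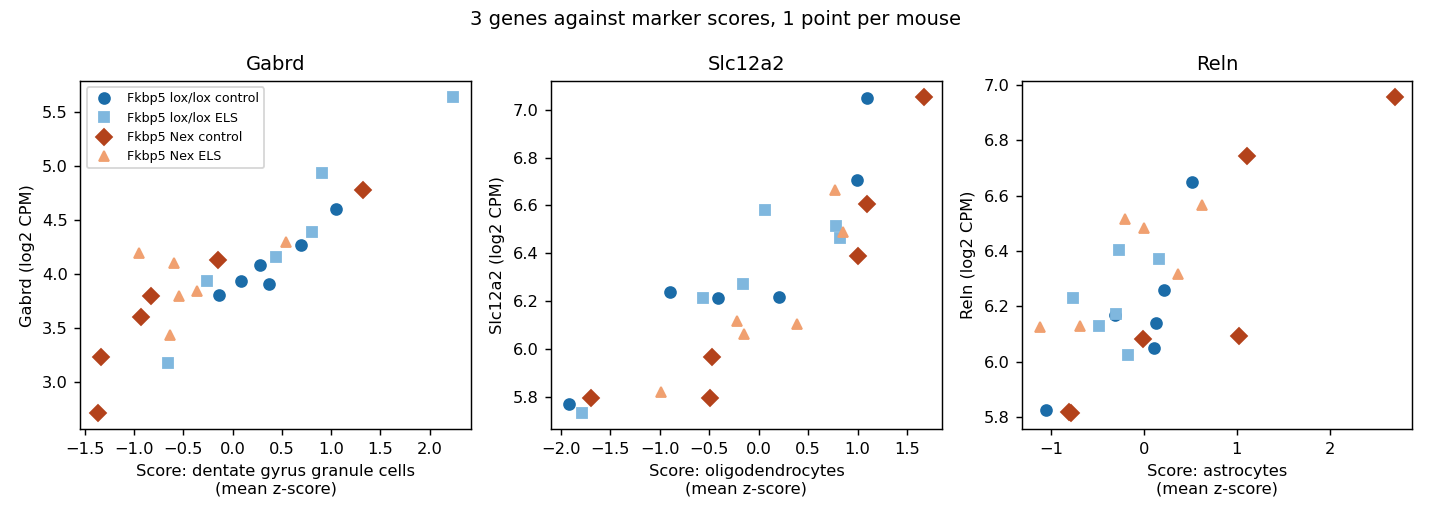
Log2 CPM of Gabrd, Slc12a2 and Reln (y axes) against the marker score of each mouse for dentate gyrus granule cells, oligodendrocytes and astrocytes (x axes, mean z-score), 1 point per mouse with shapes for the 4 groups. Points run from lower left to upper right over all mice, with r of 0.90, 0.91 and 0.84 over 24 mice after removal of group means, and 1 Fkbp5lox/lox ELS mouse stands highest for Gabrd and its score.

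Reln followed the astrocyte score (r = 0.84, permutation p = 1e-05, adjusted p = 0.000728, rho = 0.76, permutation p = 0.00026), and so did Adarb2 (r = 0.80, permutation p = 1e-05, adjusted p = 0.000728, rho = 0.77, permutation p = 1e-05). Without mice 12 and 32, r was 0.71 for Reln and 0.64 for Adarb2. Reln also followed the score of oligodendrocyte precursors (r = 0.76, permutation p = 0.0001, adjusted p = 0.00607, rho = 0.74, permutation p = 0.00011), with r = 0.75 without mice 30 and 44. It went against the score of CA2 and CA3 pyramidal neurons (r = -0.72, permutation p = 0.00031, adjusted p = 0.0155, rho = -0.61, permutation p = 0.00324), with r = -0.52 without mice 12 and 44. Reln had the largest r with microglia (r = 0.70, permutation p = 0.00587, adjusted p = 0.0648, rho = 0.57, permutation p = 0.0165) and with endothelial cells (r = 0.60, permutation p = 0.00472, adjusted p = 0.056, rho = 0.55, permutation p = 0.0102) as well, and neither passed the threshold.

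Dlx1 went with CA1 pyramidal markers (r = 0.76, permutation p = 0.0011, adjusted p = 0.0296, rho = 0.61, permutation p = 0.00371), with r = 0.48 without mice 8 and 54. It went with reticular thalamic and prethalamic markers (r = 0.59, permutation p = 0.00276, adjusted p = 0.0402, rho = 0.56, permutation p = 0.00776), with r = 0.34 without the same mice. Its negative relation with the thalamic score was the largest for that score and missed the threshold (r = -0.57, permutation p = 0.00969, adjusted p = 0.0782, rho = -0.42, permutation p = 0.0565). Gabrg1 went against the score of glutamatergic forebrain neurons (r = -0.68, permutation p = 0.00053, adjusted p = 0.0192, rho = -0.61, permutation p = 0.00254), with r = -0.64 without mice 58 and 60. Slc6a11 went against that of striatal neurons (r = -0.61, permutation p = 0.00171, adjusted p = 0.0308, rho = -0.66, permutation p = 0.00132), with r = -0.67 without mice 12 and 74.

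The other relations past the threshold are given by r, with r after the 2 mice of most extreme score were left out in parentheses. With oligodendrocytes, r was 0.68 (0.67) for Pvalb, 0.67 (0.80) for Slc32a1, 0.67 (0.76) for Gabbr2 and -0.66 (-0.60) for Reln. Gad1 was at 0.57 (0.47) with reticular thalamic markers and at 0.69 (0.58) with oligodendrocyte precursors, where Dlx1 was at 0.62 (0.60). Gabra5, an alpha subunit abundant in pyramidal neurons, was at 0.63 (0.51) with CA2 and CA3 markers. Slc12a2 was at -0.64 (-0.59) with astrocytes and at -0.67 (-0.61) with microglia, where Adarb2 was at 0.67 (0.47).

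**Figure D4:**
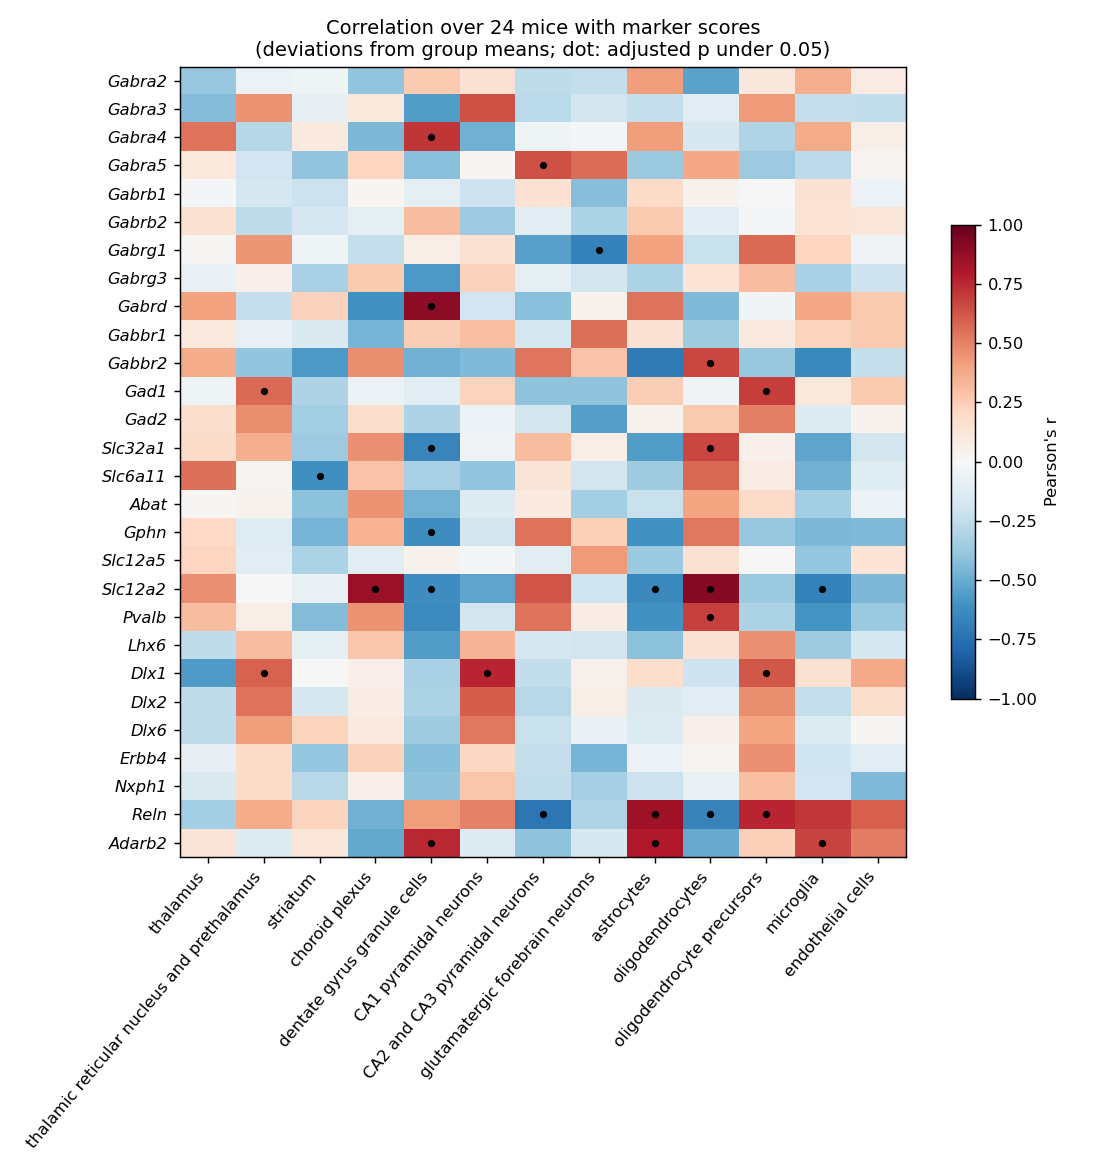
Pearson's r of the 28 genes (rows) with 13 marker scores (columns) over 24 mice after removal of group means, on a colour scale from -1 to 1. Dots mark the 27 relations with an adjusted p under 0.05, of which 6 are with the dentate gyrus score and 5 with the oligodendrocyte score.

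Among the 28 genes themselves, 35 of 378 pairs passed an adjusted p of 0.05 on the same kind of test, 28 positive and 7 negative. Gabrg3, a gamma subunit, and Erbb4 were the closest pair (r = 0.84, permutation p = 1e-05, adjusted p = 0.00189, rho = 0.82, permutation p = 2e-05). Slc32a1 and Pvalb, the vesicular transporter and parvalbumin, came next (r = 0.81, permutation p = 6e-05, adjusted p = 0.00567, rho = 0.77, permutation p = 5e-05), then Abat with Erbb4 (r = 0.80, permutation p = 1e-05, adjusted p = 0.00189, rho = 0.77, permutation p = 4e-05) and the decarboxylases Gad1 and Gad2 (r = 0.78, permutation p = 6e-05, adjusted p = 0.00567, rho = 0.80, permutation p = 2e-05), whose upstream bases are shown above. Without the 2 mice farthest from the median, r was 0.84, 0.65, 0.70 and 0.74 for these 4 pairs in turn.

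Gabra4 took part in 4 of the 10 closest pairs. It went against Lhx6 (r = -0.77, permutation p = 0.00015, adjusted p = 0.00718, rho = -0.72, permutation p = 0.00044), Gabra3 (r = -0.76, permutation p = 0.00017, adjusted p = 0.00718, rho = -0.71, permutation p = 0.00033) and Dlx1 (r = -0.74, permutation p = 0.00072, adjusted p = 0.0181, rho = -0.67, permutation p = 0.00088), and with Gabrd (r = 0.76, permutation p = 0.00018, adjusted p = 0.00718, rho = 0.69, permutation p = 0.0008). Without the 2 mice farthest out, r was -0.77, -0.55, -0.60 and 0.59. The homeobox neighbours Dlx1 and Dlx2 (r = 0.75, permutation p = 0.00015, adjusted p = 0.00718, rho = 0.76, permutation p = 3e-05, 0.62 without 2 mice) and Gad2 with the astrocytic transporter gene Slc6a11 (r = 0.73, permutation p = 0.00045, adjusted p = 0.0131, rho = 0.72, permutation p = 0.00051, 0.64 without 2 mice) were the other closest pairs. Pairs were not tested with the marker scores held fixed.

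Neighbours in the subunit clusters were not among the related pairs. Gabra4 and Gabrb1, which share exon bases, had r = 0.17 (adjusted p = 0.623), Gabra2 and Gabrb1 r = 0.56 (adjusted p = 0.0616), Gabra2 and Gabrg1 r = 0.27 (adjusted p = 0.414), and Gabra5 and Gabrg3 on chromosome 7 r = 0.03 (adjusted p = 0.961). Gabbr1 and Gabbr2, which form 1 receptor, had r = -0.07 (adjusted p = 0.848). Slc12a5 and Slc12a2 had r = 0.00 (adjusted p = 0.996), and Gad1 and Slc32a1 r = 0.44 (adjusted p = 0.142).

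**Figure D5:**
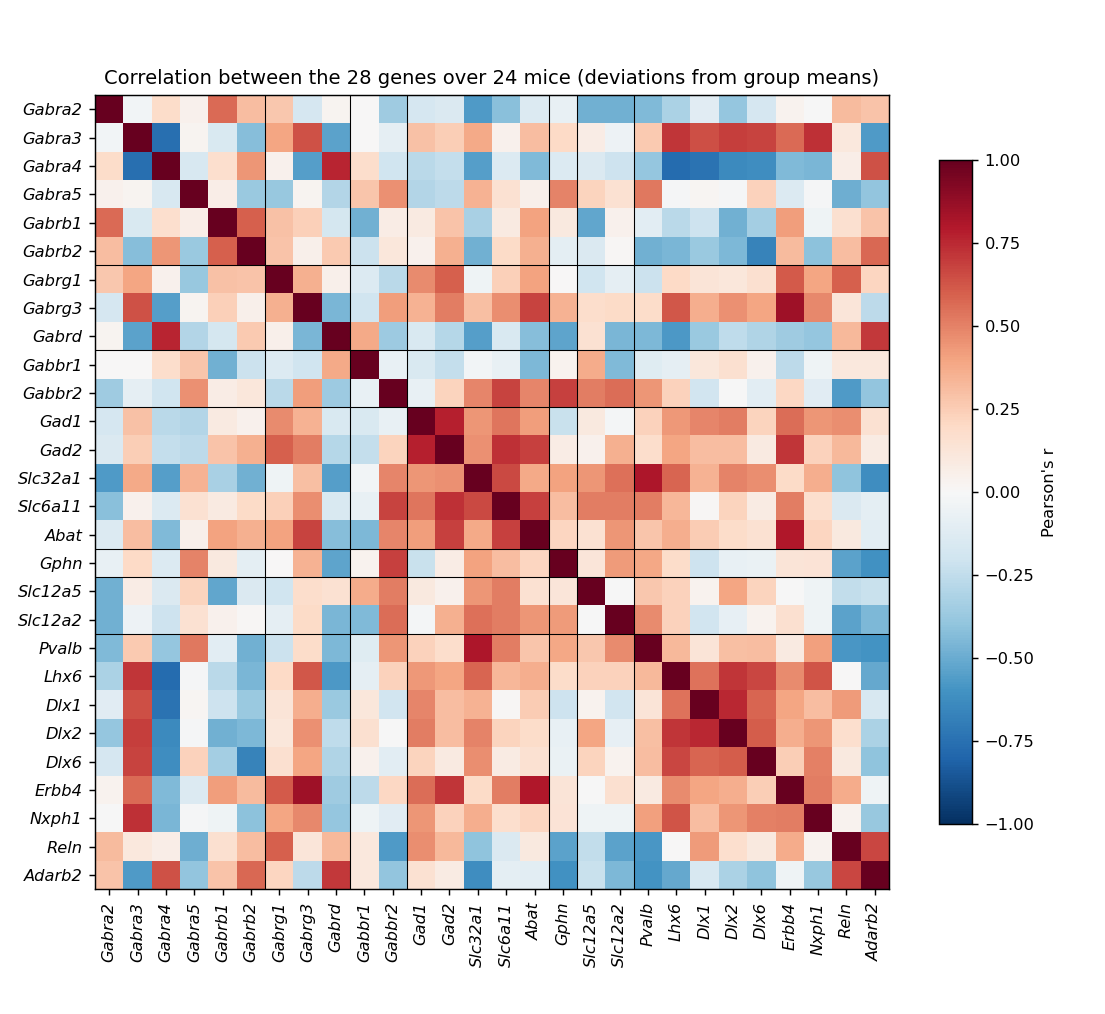
Pearson's r between the 28 genes over 24 mice after removal of group means, on a colour scale from -1 to 1, with lines between roles. The interneuron genes Lhx6, Dlx1, Dlx2 and Dlx6 form a red block at the lower right, and the row of Gabra4 is blue against them, with r = -0.77 for Lhx6.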

How the data were processed

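Bulk mRNA-seq of hippocampal punches from 24 female mice was used, 6 in each of 4 groups taken from the sample labels. Raw counts for each gene were deposited by the authors, made from quality-filtered reads with HISAT2 2.0.5 and featureCounts 1.5.0-p3 per the submitters' processing notes. The build, annotation and strand setting are not given in the sources used here, and the annotation matched by Ensembl identifier for all 28 genes was GENCODE vM21.

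All other values were computed here in R 4.3.3 (edgeR 4.0.16, sva 3.50.0, DESeq2 1.42.0, limma 3.58.1) and Python 3.11.15 (numpy 2.4.6, scipy 1.17.1, pandas 2.3.3, matplotlib 3.10.9). A gene was tested if all mice of 1 or more groups reached 10 counts (16209 of 46983). Counts were scaled by TMM. edgeR's quasi-likelihood test was run on 4 group means and 5 surrogate variables from svaseq, with Benjamini-Hochberg adjustment over all tested genes at an FDR of 0.02. The groups explained from 2.97% to 24.0% of the variance of a surrogate variable. CPM are TMM-scaled, log2 CPM used a prior count of 2, and CPM per kb were divided by the merged length of all annotated exons of the gene. The edgeR test and the permutation test were tested on simulated data that held no hidden differences between mice, so the surrogate variables were not checked this way. The 28 genes, the marker lists and the pathway lists were chosen with earlier results of these data known. The rule for named genes was that all 28 are named, with values per mouse for any past the threshold and for the smallest p in each comparison. Of the 2 lists of other genes, the text names those past the threshold and the 3 with the highest level per length in each (1 gene is not reported here), and of the relations the largest for each score and the 10 closest pairs. Other values per mouse were picked with the results in view. Alternatives were no surrogate variables, marker scores in their place, other scaling, filters and thresholds, DESeq2, only the 12 mice compared, and each mouse left out. Mice are separate animals, p-values measure the spread between them, and no batch is given. The study assigned whole litters to ELS or control rearing, and the labels give no litter. Any mice of the same litter were therefore counted as independent, so p-values for ELS and the interaction can be too small. Total counts were similar across mice, and Dlx2 and Dlx6, with the fewest reads, carry the most counting error.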

Additional observations from a re-analysis of the deposited data

Results flagged for a closer look

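In 4 of 112 combinations of a gene and a group of 6 mice, 1 mouse stood far from the other 5, with a gap to its nearest neighbour above 0.625 of the range of the group, Dixon's critical value. This is 3.57% of the combinations, and about 1 in 20 is flagged by chance. Pvalb was at 14.1 CPM in mouse 12 of the Fkbp5Nex controls, whose nearest neighbour had 27.1. Abat was at 367 CPM in mouse 62 of the Fkbp5Nex ELS group, next to 316. In the Fkbp5lox/lox controls, Gad2 was at 267 CPM in mouse 44, next to 232, and Gphn at 95 CPM in mouse 34, next to 85. No mouse was flagged for more than 1 gene. Mouse 12 of the Fkbp5Nex controls also had the highest astrocyte score (2.70), with Reln at 124 CPM, its highest value of the 24 mice. The part of tissue content in these values was not tested.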

How the results depend on the processing

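None of the 28 genes passed the threshold in any of the 7 comparisons under any alternative run, including an FDR of 0.05, DESeq2's Wald test and each mouse left out. The counts at an unadjusted p under 0.05 were less steady, from 0 (without Fkbp5lox/lox control mouse 30) to 6 (without Fkbp5lox/lox ELS mouse 8) for genotype when each mouse was left out, from 0 to 4 for genotype in controls and from 0 to 6 for genotype in ELS mice, and up to 3 for the other comparisons. The number of all genes called for genotype, 19, ranged from 2 to 70 over the alternatives.

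Signs depended on the surrogate variables. Of 196 estimates, 54 changed sign without them and 59 with either marker score in their place, against 2 with DESeq2's size factors and 0 with its Wald test. Where either value had an unadjusted p under 0.05, the reversals were Gabrb2 with no surrogate variables (-0.0677 for genotype, -0.0131 in ELS mice), and, with thalamic and choroid plexus scores, Gabra4 (-0.17 for genotype, -0.20 in controls), Gabrb2 (-0.10) and Slc12a2 (0.0441, and 0.0499 in controls). Slc32a1 for genotype (0.05) ranged from -0.135 without Fkbp5Nex control mouse 52 to 0.0842 without Fkbp5lox/lox ELS mouse 56. 2 alternatives were added after the data were seen. With the dentate gyrus score, Gabrd in controls was 0.25, and with mice 12 and 8 both left out 36 signs changed with no reversal of this kind. The cause was not tested.

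Relations with marker scores past the threshold numbered 27, 25 with DESeq2's size factors, and 9 when the 2 mice with the most extreme score were left out. No mouse was beyond 2.5 SD on the first principal component, so that alternative gave no fit. No paired analysis was possible because the groups share no mouse numbers and the litters, which held both genotypes, are not given. Depth limits Dlx2 and Dlx6 most.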
